A study of Mus musculus with 47 samples.

Results

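SR proteins and heterogeneous nuclear ribonucleoproteins (hnRNPs) are RNA-binding proteins that decide which exons a pre-mRNA keeps. SR proteins carry a domain rich in arginine and serine, bind mostly exonic enhancers and help the spliceosome to assemble, whereas hnRNPs coat nascent RNA and often oppose exon use. In muscle, a further set of regulators, the Rbfox, Mbnl, Celf and Rbm proteins, sets the adult splicing pattern of sarcomere, calcium-handling and signalling transcripts, and the Tra2 proteins are SR-like cofactors that bind exonic enhancers.

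The set described here held 39 genes of the 24421 in the deposited files. It comprised all 11 genes whose symbol begins with Srsf (SR genes), all 20 whose symbol begins with Hnrnp (hnRNP genes), and 8 regulators chosen by symbol, Tra2a, Tra2b, Rbfox1, Mbnl1, Mbnl2, Celf1, Rbm20 and Rbm24. The rule used symbols only and no measured value, but it was set with earlier results of these data known. RNA of single fibres of the extensor digitorum longus (EDL), a fast hindlimb muscle, was sequenced from FVB/N mice aged 2 to 3 months. The C2KO group (20 fibres) came from homozygous mice in which part of Mybpc2, the gene of fast myosin binding protein C, is replaced by a neomycin cassette in every cell, and the WT group (27 fibres) carried the intact gene. The labels name 2 C2KO and 3 WT mice but tie no fibre to a mouse, so raw counts were summed into 5 pools. The C2KO pools followed the prefix of the fibre name (740 and 2445, 10 fibres each), and the WT pools followed the sequencing run (WT pool 1, 10 fibres, WT pool 2, 10 fibres, and WT pool 3, 7 fibres).

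Libraries held 7648762 to 10517887 gene counts in C2KO fibres and 7769593 to 14606631 in WT fibres. Mybpc2 lay between 2.61 and 47.6 counts per 1000000 gene counts (CPM) in C2KO fibres and between 6563 and 11556 CPM in WT fibres, so no library went against its genotype label. Type IIb fibre markers took 25.5 to 33.7% of the counts in C2KO fibres and 27.5 to 32.3% in WT fibres. Run was nearly confounded with genotype, since only run 0092 held both, with 1 C2KO fibre and 7 WT fibres. Y-linked transcripts were counted in all 10 fibres of C2KO pool 740 (at least 1019 counts each) and in none of pool 2445. The fibres of pool 2445 instead held 37 to 93 counts of Xist, and each WT pool held fibres of both kinds. With the 2 C2KO mice that the labels name, each C2KO pool was therefore 1 mouse, pool 740 a male and pool 2445 a female. In C2KO pool 740 the 10 fibroblast markers summed to a mean of 684 CPM, against 41.5 CPM in pool 2445 and 46.5, 16.2 and 2.10 CPM in WT pools 1, 2 and 3, and most of that sum came from fibre 740-5 (5024 CPM). One more fibre of that pool, 740-12, stood apart in the splicing factors and was also high in related gene lists. It is described below, and the main results that rest on it are given with and without it.

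The stretch just before the start site is printed for 4 members, since the data described below set them apart: Srsf3 and Srsf7 varied together from fibre to fibre, Hnrnpu moved with both, and Rbm24 did not. Each run covers the 150 bases before the start in the RefSeq promoter table (build GRCm38.p6), read 5′ to 3′ on the strand of the gene. They lie at chr17:29032510-29032659 (plus strand, Srsf3), chr17:80207306-80207455 (minus strand, Srsf7), chr1:178337816-178337965 (minus strand, Hnrnpu) and chr13:46418150-46418299 (plus strand, Rbm24). Capitals mark matches, on either strand, to 4 short motifs, the GC box GGGCGG, the CCAAT box CCAAT, the TATA element TATAAA and the ETS core CCGGAA.
Srsf3: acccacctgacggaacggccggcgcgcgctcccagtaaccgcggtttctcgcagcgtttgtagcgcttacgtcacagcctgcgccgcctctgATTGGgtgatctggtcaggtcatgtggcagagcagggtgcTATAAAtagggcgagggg
Srsf7: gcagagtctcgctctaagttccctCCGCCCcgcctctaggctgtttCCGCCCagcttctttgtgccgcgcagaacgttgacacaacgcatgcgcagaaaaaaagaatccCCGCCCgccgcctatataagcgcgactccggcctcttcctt
Hnrnpu: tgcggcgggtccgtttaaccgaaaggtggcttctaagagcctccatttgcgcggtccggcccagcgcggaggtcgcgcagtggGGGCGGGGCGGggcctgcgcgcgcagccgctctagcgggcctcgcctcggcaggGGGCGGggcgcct
Rbm24: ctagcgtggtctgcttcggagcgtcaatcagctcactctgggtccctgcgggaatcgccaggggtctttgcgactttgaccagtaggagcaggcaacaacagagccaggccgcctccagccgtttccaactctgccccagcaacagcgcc
Of the 39 genes, 36 had an entry in that table, with 50 start sites in all. Over the 250 bases before each start, the members' windows held a median of 23 CpG dinucleotides, against 6 over all 32851 windows of the table. GGGCGG was present in 38 of the members' 50 windows and in 32.7% of all windows, and CCGGAA in 15 of the members' 50 windows and in 12.0% of all windows. By family, CCGGAA was in 8 of 14 SR windows, 7 of 27 hnRNP windows and 0 of 9 regulator windows. CCAAT was found in 17 of 27 hnRNP windows but 3 of 14 SR windows, and in 33.8% of all windows. TATAAA occurred in 4 of the 50 windows, that of Srsf3 among them, and in 12.4% of all windows. Windows of 1 gene overlap, and a match is a description of these letters only.

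Transcript levels, given as TPM (counts per exon length, scaled to a sum of 1000000 in each fibre), spanned over 2 orders of magnitude among the members. Hnrnpa2b1, which encodes an hnRNP that binds and transports mRNAs, was the most abundant at 192 ± 11.7 TPM in C2KO and 218 ± 18.9 TPM in WT (SD, n = 2 and 3 pools). It was followed by Mbnl1, Mbnl2, Rbm24, Hnrnpk and Hnrnpab, whose means over all fibres lay between 110 and 121 TPM. These 5 neighbours did not differ beyond their spread over the 5 pools, whose SD ran from 2.87 TPM in Rbm24 to 13.2 TPM in Mbnl1. Srsf2 was the highest SR gene (88.9 ± 23.5 TPM in C2KO and 89.3 ± 7.36 TPM in WT), and Srsf5 came next (78.6 ± 4.85 TPM in C2KO and 72.2 ± 0.988 TPM in WT).

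The low end of the range held Tra2a (1.80 TPM over all fibres), Hnrnpul2 (1.53 TPM) and Hnrnpa3 (0.599 TPM). Srsf12 had a count in only 7 of 47 fibres, with at most 0.498 CPM, and was the 1 member that did not pass the filter on low counts. Hnrnpa1 (2.43 TPM) and Hnrnpa3 are uncertain in level, because 79.1% of the exon bases of Hnrnpa1 are also exon of Gm5643 on the same strand and 27.9% of those of Hnrnpa3 are exon of Gm6793, and reads assigned to more than 1 gene were not counted. In total the members made up 0.159% of all transcripts, 0.0318% from SR genes, 0.0781% from hnRNP genes and 0.0489% from the 8 regulators. Of the regulators, Mbnl1, Mbnl2 and Rbm24 (118 to 121 TPM) were in the range of Hnrnpk and Hnrnpab (113 and 110 TPM), whereas Rbfox1 was at 65.5 TPM, Rbm20 at 20.1 TPM and Celf1 at 18.5 TPM.

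**Figure D1:**
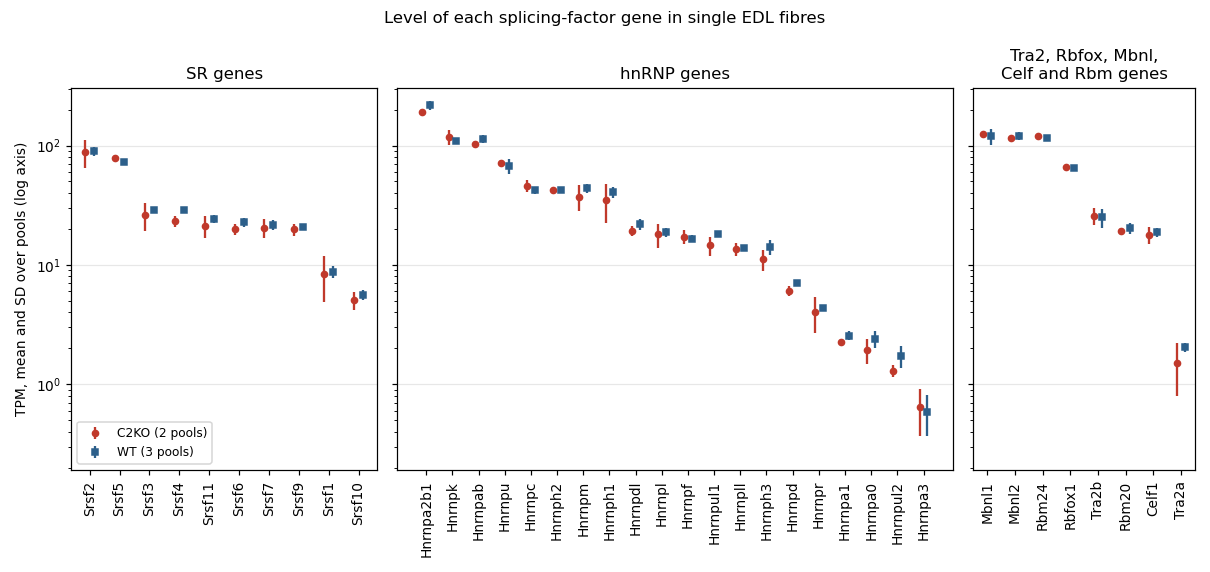
TPM of each member on a log axis, as the mean and SD over 2 C2KO pools (circles) and 3 WT pools (squares), in order of level within each family, with Srsf12 left out. Hnrnpa2b1 was the highest at 192 TPM in C2KO and 218 TPM in WT, and the bars of the genotypes lay close together for nearly every gene.

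The main comparison asked whether fibres without fast myosin binding protein C carry other amounts of these splicing-factor transcripts than WT fibres. None of the 38 members tested passed the thresholds (adjusted p under 0.05 and fold over 1.5) in either direction, by edgeR's quasi-likelihood test on the 5 pools. Over all 12863 genes tested, 0.0233% were called higher in C2KO and 0.0233% lower, so a list of this size would hold no call at the background rate either. No member had an unadjusted p under 0.05 by edgeR, against 1328 of the 12863 genes tested. None did by limma-voom and 2 did by DESeq2 (Srsf5 and Hnrnpul1), where the number over all genes was not counted. There was no call by any of the 3 tools. Over all 12863 genes, limma-voom called 4 higher in C2KO and 4 lower, and DESeq2 called 133 higher and 64 lower.

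Between these pools, the size of the differences was bounded fairly closely. For 31 of the 38 members tested, the 95% confidence interval of the log2 fold change lay within a fold of 1.5 in both directions, all 10 SR genes among them. Of the 33 members at 5 CPM or more, 93.9% had such an interval, compared with 72.5% of the 7643 genes tested at that level. The widest intervals belonged to Hnrnpa3 (-0.83 to 1.16) and Tra2a (-1.16 to 0.38), both counted at 1 to 2 CPM. The p-values and intervals measure the spread between pools, which may in part be technical. In C2KO this spread also holds any difference between 1 male and 1 female mouse. Each WT pool held both fibres with Y-linked transcripts and fibres with Xist. With the 3 WT mice that the labels name, the WT pools must therefore share mice. The intervals thus do not measure the spread between mice in WT, and in C2KO that spread cannot be told apart from sex.

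As a group, the SR genes had a median log2 fold change of -0.072, with 2 of 10 above 0. The hnRNP genes had a median of -0.10, with 7 of 20 above 0, and the 8 regulators had a median of 0.042, with 5 of 8 above 0. The median over all genes tested was -0.00038. The negative SR and hnRNP medians rested on C2KO pool 2445, since without it they were 0.032 and 0.0056, whereas without pool 740 they were -0.17 and -0.17. Both C2KO pools lay above every WT pool for 4 members (10.5%, against 13.1% of all genes tested) and below every WT pool for 4 members (10.5%, against 14.5%), so separated pools were no more frequent among the splicing factors than in the background.

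**Figure D2:**
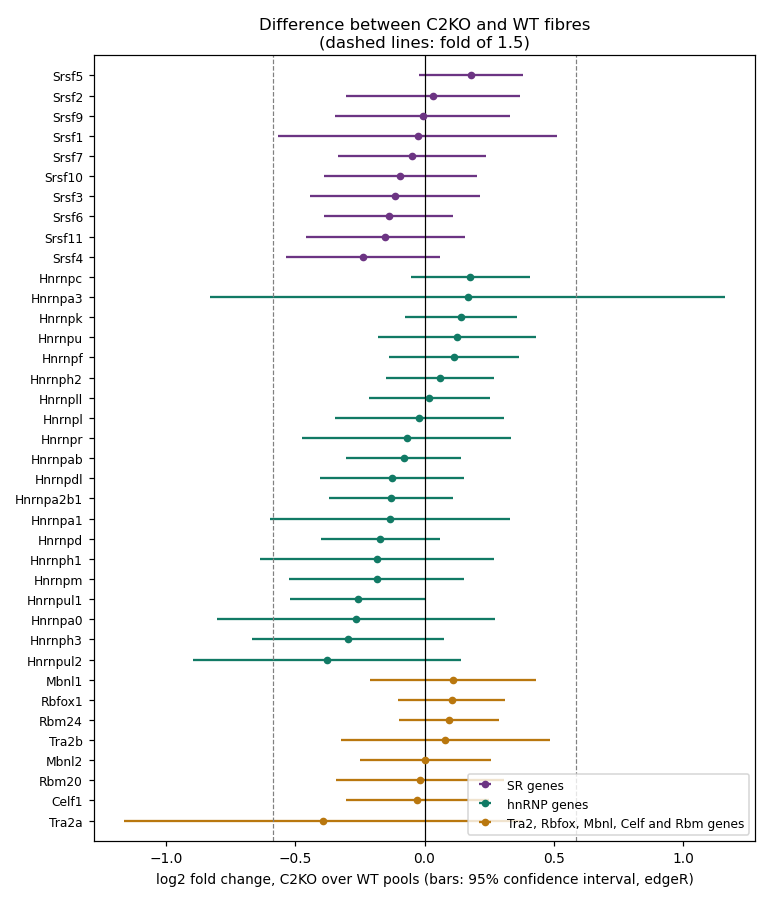
Log2 fold change of C2KO over WT pools with the 95% confidence interval for the 38 members tested, grouped by family and ordered by size, with dashed lines at a fold of 1.5. The point estimates ran from -0.39 (Tra2a) to 0.18 (Srsf5), and the interval of every SR gene stayed between the dashed lines.

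Among the SR genes, Srsf5 (mm10 chromosome 12, 80945504 to 80950507), a serine-arginine splicing factor, was the member with separated pools in the upward direction. It had 68.8 and 69.8 CPM in C2KO pools 740 and 2445, against 59.5, 62.6 and 61.4 CPM in WT pools 1, 2 and 3 (all pool values are scaled by edgeR's TMM factors). The log2 fold change was 0.18 (SE 0.083, edgeR adjusted p = 0.517). Most single fibres overlapped, with a range of 48.4 to 109 CPM and a median of 67.7 CPM in C2KO, against 36.8 to 91.1 CPM and a median of 62.5 CPM in WT.

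Srsf4 lay in the other direction, with 24.8 and 31.3 CPM in the C2KO pools and 33.1, 33.9 and 32.4 CPM in the WT pools (log2 fold change -0.24, SE 0.12, edgeR adjusted p = 0.553). Pool 740 set this gap, while pool 2445 was close to the WT values. Of its exon bases, 68.8% overlap Gm12992 on the opposite strand, a gene counted at a mean of 23.4 CPM, so its reads are separated from that gene only if the library kept strand, which the sources used here do not give. The same holds for Hnrnph3, of whose exon bases 81.4% overlap Rufy2. Srsf2, a factor concentrated in nuclear speckles, had 101 and 77.2 CPM in the C2KO pools and 94.2, 80.99 and 86.6 CPM in the WT pools. The C2KO pools enclosed the WT range, and the log2 fold change was 0.032 (SE 0.14).

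Srsf3 and Srsf7, which also serve as adaptors for mRNA export, overlapped between genotypes as well. Srsf3 (mm10 chromosome 17, 29032660 to 29043372) had 47.7 and 36.1 CPM in C2KO pools and 45.6, 46.8 and 43.7 CPM in WT pools. Srsf7 (chromosome 17, 80200080 to 80207305) had 31.7 and 27.5 CPM in C2KO pools and 32.8, 27.8 and 31.3 CPM in WT pools. Pool 2445 was the lowest of the 5 pools for both genes and pool 740 was within or just above the WT range. The log2 fold changes were -0.12 (SE 0.14) for Srsf3 and -0.050 (SE 0.12) for Srsf7. The place of pool 740 for Srsf3 leaned on fibre 740-12, which had 110 CPM, against a median of 43.1 CPM in the pool's other fibres. Without fibres 740-5 and 740-12, Srsf3 had the smallest unadjusted p of the members (0.0576, edgeR adjusted p = 0.545).

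Of the hnRNP genes, Hnrnpk and Hnrnpc had separated pools with C2KO above WT. Hnrnpk, whose protein binds cytidine-rich RNA, had 199 and 179 CPM in C2KO pools and 163, 178 and 173 CPM in WT pools (log2 fold change 0.14, SE 0.090, edgeR adjusted p = 0.624). The gap between the closest pools, 179 CPM in C2KO and 178 CPM in WT, was under 1 CPM. Hnrnpc, whose protein binds uridine tracts, had 71.6 and 68.0 CPM in C2KO pools and 58.01, 61.4 and 65.8 CPM in WT pools (log2 fold change 0.18, SE 0.095, edgeR adjusted p = 0.563).

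Hnrnpul1 and Hnrnpd lay lower in both C2KO pools. Hnrnpul1, a relative of Hnrnpu, had 25.2 and 21.7 CPM in C2KO pools and 29.4, 26.9 and 28.0 CPM in WT pools, and its unadjusted p of 0.0525 was the smallest of all members (log2 fold change -0.26, 95% interval -0.52 to 0.0038, edgeR adjusted p = 0.487). Hnrnpd, whose protein binds AU-rich elements of unstable mRNAs, had 22.4 and 21.8 CPM in C2KO pools and 26.1, 23.6 and 24.9 CPM in WT pools (log2 fold change -0.17, SE 0.095, edgeR adjusted p = 0.572). Neither gene was separated at the level of fibres, where Hnrnpul1 ran from 16.8 to 31.0 CPM in C2KO and from 17.9 to 40.7 CPM in WT.

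The remaining abundant hnRNP genes overlapped between genotypes. Hnrnpa2b1 had 242 and 248.8 CPM in C2KO pools and 272, 245 and 290 CPM in WT pools (log2 fold change -0.13, SE 0.099). Hnrnpab had 138 and 144 CPM in C2KO pools and 159, 148 and 139 CPM in WT pools (log2 fold change -0.081, SE 0.092). Hnrnpu, whose protein binds nuclear RNA and chromatin, had 137 and 141 CPM in C2KO pools and 147, 115 and 119 CPM in WT pools, so both C2KO pools lay within the WT range.

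Of the 8 regulators, all but Tra2a had a point estimate between -0.028 and 0.11 on the log2 scale. Rbm24, a muscle-enriched splicing factor, had 200.1 and 213 CPM in C2KO pools and 192, 190.4 and 198 CPM in WT pools (log2 fold change 0.095, SE 0.080, edgeR adjusted p = 0.709). Its pools were separated, but by less than 3 CPM at the closest point, and its fibres ran from 158 to 261 CPM in C2KO and from 145 to 248 CPM in WT. Rbfox1, an activator or repressor of exons depending on where it binds, had 188 and 202 CPM in C2KO pools and 181, 188 and 174 CPM in WT pools (log2 fold change 0.10, SE 0.085).

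The muscleblind genes Mbnl1 and Mbnl2, whose proteins drive the switch from fetal to adult splicing, came next after Hnrnpa2b1 in TPM. Mbnl1 had 376 and 391 CPM in C2KO pools and 398, 298.5 and 368 CPM in WT pools (log2 fold change 0.11, SE 0.13). For Mbnl2 the C2KO pools had 262 and 301 CPM and the WT pools 299.4, 282 and 261 CPM, with a log2 fold change of 0.0030 (95% interval -0.25 to 0.26). Celf1, which opposes muscleblind proteins on several exons, had 80.4 and 70.3 CPM in C2KO pools and 84.5, 73.3 and 72.6 CPM in WT pools (log2 fold change -0.028, SE 0.11).

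Rbm20, the factor known for titin splicing, had 61.6 and 74.8 CPM in C2KO pools and 75.4, 70.9 and 61.0 CPM in WT pools (log2 fold change -0.019, SE 0.13). Tra2b had 30.6 and 27.5 CPM in C2KO pools and 26.8, 22.7 and 33.0 CPM in WT pools (log2 fold change 0.080, SE 0.17). Its paralogue Tra2a was scarce, at 1.86 and 1.04 CPM in C2KO pools and 1.96, 1.71 and 2.02 CPM in WT pools (log2 fold change -0.39, SE 0.32), a difference only slightly larger than its standard error.

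In run 0092, the 1 run with both genotypes, the single C2KO fibre lay within the range of the 7 WT fibres for 31 of the 39 members. It was above that range for 5 members (12.8%, against 14.5% of all genes tested) and below it for 3 (7.69%, against 14.7%). Srsf4 was among the latter, with 23.1 CPM in the C2KO fibre and 25.8 to 47.6 CPM in the WT fibres. A single fibre allows no test of genotype within the run.

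The C2KO pools also differed from each other. Pool 2445 was the lowest of all 5 pools for 7 of 10 SR genes and 9 of 20 hnRNP genes tested, whereas it was the lowest for 21.3% of all genes tested. For the 8 regulators it was the lowest in 2 cases and the highest in 3. Summed per fibre, SR genes had a median of 394 CPM (347 to 687) in C2KO pool 740 and 335 CPM (315 to 379) in C2KO pool 2445, against 383, 399 and 388 CPM in WT pools 1, 2 and 3. The hnRNP genes summed to a median of 1138 CPM (1040 to 1650) in pool 740 and 996 CPM (942 to 1148) in pool 2445, against 1145, 1097 and 1153 CPM in the WT pools. Without fibres 740-5 and 740-12, SR sums in pool 740 still ran from 347 to 413 CPM.

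Within the run that held all 10 fibres of pool 2445 and 6 of pool 740, the fibres did not overlap between the prefixes for Srsf1, Srsf2 and Hnrnph1, all with pool 740 above. These are 3 of the 38 members tested (7.89%), and 0.902% of all genes tested had such separated fibres with pool 740 above and 0.179% with pool 740 below. That background includes genes of low count, and the share among genes at 5 CPM or more was not counted. Srsf1, the founding SR protein gene, ran from 26.2 to 45.9 CPM (median 34.8) in the pool 740 fibres and from 12.7 to 23.7 CPM (median 16.3) in pool 2445. The 27 WT fibres overlapped both ranges, from 14.5 to 37.9 CPM, but reached neither the lowest values of pool 2445 nor the highest of pool 740. Hnrnph1, whose protein binds guanosine runs, ran from 42.02 to 78.8 CPM in the pool 740 fibres and from 26.4 to 38.03 CPM in pool 2445. The prefixes also differed in sex-linked transcripts and fibroblast markers, as given above. In that run the immediate-early and heat-shock genes (listed below) summed to a median of 3019 CPM (1876 to 4675) in the pool 740 fibres. Their median in pool 2445 was 5253 CPM (2866 to 5831). These differences cannot be told apart from the prefix, and so from the mouse and its sex. The prefixes were not tested against each other, since fibres share animals.

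**Figure D3:**
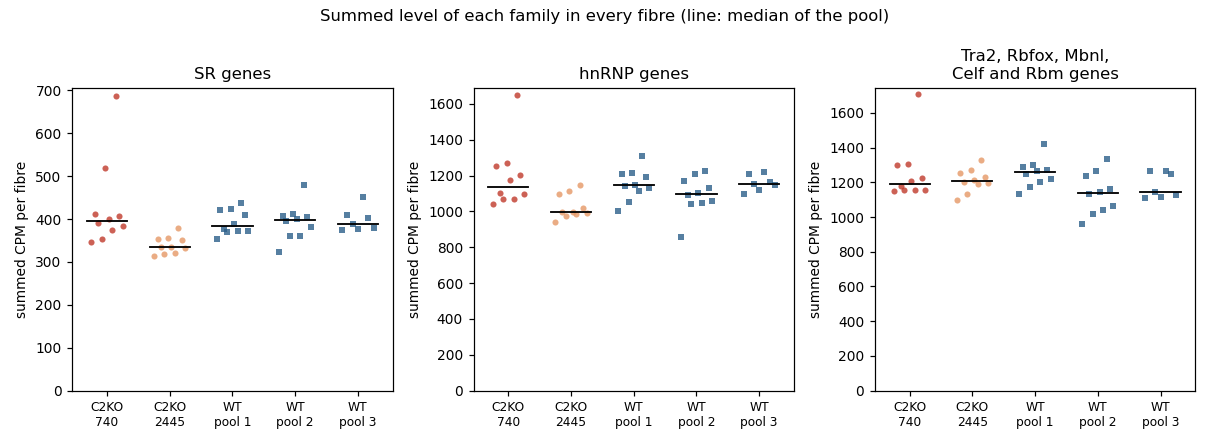
Summed CPM of SR genes, hnRNP genes and the 8 regulators in every fibre, by pool, with the C2KO pools at the left of each panel and a line at the pool's median. SR sums in C2KO pool 2445 had a median of 335 CPM, below the 383 to 399 CPM of the WT pools, and 1 fibre of C2KO pool 740 reached 687 CPM.

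Fibre 740-12 held the highest sum of all 3 families, 687 CPM of SR genes, 1650 CPM of hnRNP genes and 1707 CPM of the regulators. Compared with the median of the other 9 fibres of its pool, 17 of 33 members (51.5%) were over 1.5 times higher and none was over 1.5 times lower, whereas 19.7% of 7569 genes at 5 CPM or more were over 1.5 times higher and 13.5% were over 1.5 times lower. Srsf7 (74.4 CPM, 2.58 times the median of the others), Srsf3 (110 CPM, 2.55 times) and Hnrnpu (294 CPM, 2.49 times) led the members. Hnrnpul1, in contrast, was at 19.9 CPM, 0.738 times that median. Related lists were highest of the pool in this fibre too. Kinases and phosphatases of SR proteins summed to 1239 CPM (pool median 854), core spliceosome genes to 1356 CPM (1168) and other splicing regulators to 2234.5 CPM (1683). Type IIb markers took 25.5% of this fibre's counts, the lowest share of all fibres. Its fibroblast markers summed to 61.6 CPM and its macrophage and leukocyte markers to 18.4 CPM (pool median 2.10), and it held 2348 Y-linked counts (pool median 1217.5). The part of any of these in its levels was not tested. Without it, the SR median log2 fold change was -0.16, the hnRNP median -0.11 and the regulator median 0.00064, and no member was called.

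Spread from fibre to fibre was described by the coefficient of variation within pools. Over the 33 members at 5 CPM or more its median was 15.2%, against 19.3% over all 7643 genes at that level, and 14.0% and 18.8% without fibre 740-12. Srsf7 was the most variable of these members at 27.3% (22.7% without fibre 740-12), and Hnrnpab the least variable at 9.47%, a place taken by Hnrnpk at 9.18% without that fibre. Srsf7 ran from 12.2 to 74.4 CPM in C2KO fibres (median 26.7) and from 21.1 to 42.4 CPM in WT fibres (median 29.7). Srsf3 ran from 25.9 to 110 CPM in C2KO (median 38.4) and from 32.5 to 57.2 CPM in WT (median 45.4), and Hnrnpu from 103 to 294 CPM in C2KO (median 127) and from 78.1 to 171 CPM in WT (median 125). The upper ends in C2KO were set by fibre 740-12 for all 3 genes.

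**Figure D4:**
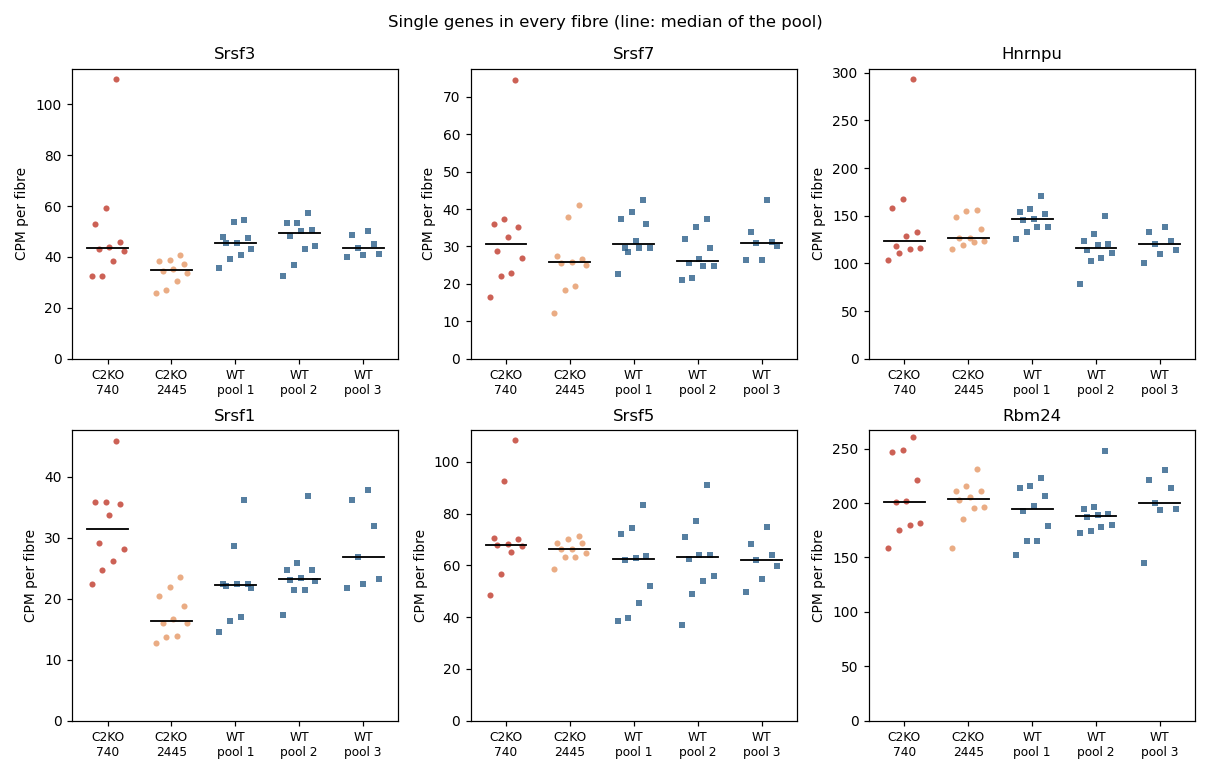
CPM of 6 members in every fibre, by pool, with the C2KO pools at the left of each panel and a line at the pool's median. Srsf3, Srsf7 and Hnrnpu each had 1 fibre far above the rest in C2KO pool 740, Srsf1 was lowest in C2KO pool 2445 (median 16.3 CPM), and Rbm24 had medians near 200 CPM in every pool.

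Some members varied together. Levels were taken as log2(CPM + 1) minus the mean of the fibre's pool, over the 47 fibres, and 528 pairs among the 33 members with a mean of at least 10 CPM were described by Pearson's r and Spearman's rho. Fibres of a pool share animals, and CPM values share a fixed sum, so these are descriptions without a test. The fibres of each pool also share a sequencing run, except those of C2KO pool 740, which came from several runs. Each WT pool held both fibres with Y-linked transcripts and fibres with Xist. Subtracting the pool mean does not remove such differences within a pool, and their part in the r values was not tested. The median r over all pairs was 0.20, and 0.13 without fibre 740-12. Srsf3 and Srsf7 had an r of 0.75 (rho 0.67), and 0.64 without fibre 740-12. Within single pools their r was 0.86 and 0.72 in C2KO pools 740 and 2445, against 0.59, 0.77 and 0.51 in WT pools 1, 2 and 3, so the pair moved the same way in every pool. These values are parts of the same data as the r over all fibres and give no separate support.

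Hnrnpu had an r of 0.72 with Srsf3 and 0.69 with Srsf7, which became 0.49 and 0.53 without fibre 740-12. Hnrnpa2b1 and Mbnl1 formed the closest pair without that fibre, with an r of 0.72 (0.75 with it, rho 0.68), although the value was only 0.19 in WT pool 3. Rbm24 had an r of 0.23 with Srsf3 and 0.040 with Srsf7. Inverse relations were weaker: Hnrnpd and Mbnl2 had an r of -0.15, and -0.48 without fibre 740-12.

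Further relations concerned transcripts that respond quickly to stress. The summed immediate-early genes (Fos, Fosb, Jun, Junb, Egr1, Atf3 and Ier2) had an r of 0.67 with Srsf5 (rho 0.64) and 0.63 with Hnrnpul1 (rho 0.52). These were the highest values among the members with a mean of at least 10 CPM. The lowest were -0.48 with Hnrnpm (rho -0.37) and -0.30 with Mbnl2 (-0.43 without fibre 740-12). Within pools the r of Srsf5 was 0.40 and 0.0045 in C2KO pools 740 and 2445, against 0.76, 0.81 and 0.82 in the WT pools. Hnrnpul1 had -0.57 and 0.23 in the C2KO pools, against 0.52, 0.77 and 0.92 in the WT pools. The list of immediate-early and heat-shock genes as a whole ran from 1770 to 5831 CPM in C2KO fibres and from 567 to 7538 CPM in WT fibres, so the WT fibres covered the wider range. Its part in the levels of Srsf5 and Hnrnpul1 between genotypes was not tested.

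Heat-shock transcripts (Hspa1a, Hspa1b, Dnajb1 and Hsph1) had an r of 0.59 with Hnrnpm (rho 0.46), between 0.50 and 0.69 within each of the 5 pools. Srsf11 had an r of 0.59 with the fibroblast markers (rho 0.55), and 0.50 without fibres 740-5 and 740-12. The sum of type IIb markers had an r of -0.52 with the SR sum and -0.53 with the hnRNP sum, but -0.20 with the regulators. Without fibre 740-12 these values were -0.38, -0.41 and 0.046, and without fibres 740-5 and 740-12 they were -0.19, -0.36 and 0.0083. By pool, the r with the SR sum was -0.73 and -0.13 in C2KO pools 740 and 2445, against -0.66, 0.011 and -0.0017 in WT pools 1, 2 and 3, and that with the hnRNP sum was -0.83 and -0.60 in the C2KO pools, against -0.95, 0.37 and -0.085 in the WT pools. The values were thus near 0 in WT pools 2 and 3 for the SR sum and positive in WT pool 2 for the hnRNP sum. In WT pool 2, however, fibre 59_17717 was the lowest in type IIb share (27.5%), SR sum (324 CPM) and hnRNP sum (855.6 CPM). The r values of that pool may rest on this fibre, and they were not computed without it.

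**Figure D5:**
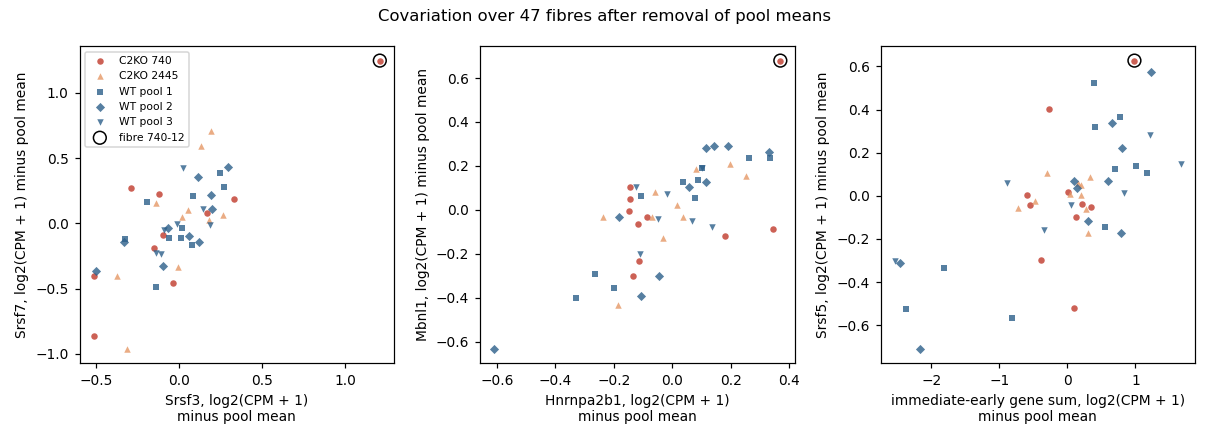
Log2(CPM + 1) minus the pool mean in 47 fibres for Srsf7 against Srsf3, Mbnl1 against Hnrnpa2b1, and Srsf5 against the sum of immediate-early genes, with C2KO pool 740 as circles, C2KO pool 2445 as triangles and the WT pools as squares, diamonds and inverted triangles, and fibre 740-12 ringed. The r values were 0.75, 0.75 and 0.67 with that fibre.

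No gene was called in 4 lists of genes that work with or under the members. Of 12 kinases and phosphatases of SR proteins, all were tested and none was called (median log2 fold change -0.029). The catalytic subunits of protein phosphatase 1, which can remove phosphate from SR proteins, were the most abundant, with Ppp1ca at 241 ± 19.3 CPM in C2KO and 258 ± 13.6 CPM in WT, and Ppp1cb at 276 ± 2.73 CPM in C2KO and 269 ± 34.1 CPM in WT (SD, n = 2 and 3 pools). Srpk3, the muscle SR protein kinase, had 61.3 ± 10.5 CPM in C2KO and 67.7 ± 5.29 CPM in WT.

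Of 38 core spliceosome genes, 37 were tested and none was called, with a median log2 fold change of -0.055. Both C2KO pools lay below every WT pool for 11 of the 37 and above them for 3, while the background rates are 14.5% and 13.1%. Snrpb, a core Sm protein gene, had 149 ± 4.40 CPM in C2KO and 164 ± 13.5 CPM in WT, and Snrpd3 had 47.7 ± 2.16 CPM in C2KO and 50.7 ± 4.39 CPM in WT. Of 41 other splicing regulators, 40 were tested and none was called (median -0.038). Fxr1, an RNA-binding protein of muscle, had 218 ± 3.55 CPM in C2KO and 222 ± 9.52 CPM in WT, and Pcbp1, a poly-cytidine binding protein, had 132 ± 3.23 CPM in C2KO and 109 ± 17.6 CPM in WT.

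Of 21 muscle transcripts known to be spliced by the regulators, 20 were tested and none was called (median 0.020). Atp2a1, the calcium pump of fast fibres, had 73009 ± 11560 CPM in C2KO and 81359 ± 4050 CPM in WT, and Tnnt3, fast troponin T, had 22593 ± 2284 CPM in C2KO and 20155 ± 572 CPM in WT. Counts were summed over all exons of a gene, so they give the amount of each transcript and not which exons it carried, and neither splicing nor protein was measured.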

How the data were processed

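Each sample was the RNA of 1 EDL fibre freed by collagenase digestion, from 20 C2KO and 27 WT fibres. The authors deposited whole-number counts per gene for each fibre, made with featureCounts 1.5.2 over exons of the mm10 annotation with strand option 2. FastQC 0.11.2, CASAVA 1.4 and HISAT2 2.0.5 are further tools in the submitters' processing notes. No source used here says whether the library kit kept strand.

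Fibres were not treated as replicates. Counts were summed into 2 C2KO and 3 WT pools and tested with edgeR 4.0.16 in R 4.3.3 (glmQLFit and glmQLFTest, TMM normalization, filterByExpr, Benjamini-Hochberg adjustment over 12863 genes). The thresholds, adjusted p under 0.05 and fold over 1.5, follow the study's methods. Confidence intervals use a level of 95% and the fit's total degrees of freedom. CPM per fibre are relative to all gene counts of that fibre, and TPM divide counts by exon length. Correlations used a pseudocount of 1. The lowest chi-square per degree of freedom over 1081 pairs of fibres was 8.402, so no library was counted as deposited more than once. The code was tested on simulated data. Alternatives were limma-voom (limma 3.58.1), DESeq2 1.42.0, DESeq2-type (RLE) size factors, no filter, no fold threshold, thinned fibres, each pool left out, and fits over 47 fibres with and without run. The omission of fibres 740-5 and 740-12 was chosen after seeing the data.

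The members and gene lists were chosen with earlier results of these data known. Named were the 8 regulators, and of SR and hnRNP genes those called, the 4 highest in TPM, up to 4 per direction with separated pools at 5 CPM or more, and the 3 with the largest spread over fibres. Of other lists, up to 3 called genes or the 2 highest were named. Other genes, such as Srsf1, Srsf11, Hnrnph1, Hnrnpm and Srpk3, the low members Srsf12, Hnrnpa1, Hnrnpa3 and Hnrnpul2, and the printed promoters were chosen after their values were seen.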

Additional observations from a re-analysis of the deposited data

Results flagged for a closer look

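The family sums were compared among the fibres of each pool by Dixon's ratio, the gap of the extreme fibre to its neighbour over the pool's range, in 15 sets of fibres. Chance flags about 1 in 20 such sets. In C2KO pool 740, fibre 740-12 exceeded the limit in all 3 families: 687.4 CPM of SR genes (next 518 CPM, ratio 0.497), 1650 CPM of hnRNP genes (next 1272 CPM, ratio 0.619) and 1707 CPM of the Tra2, Rbfox, Mbnl, Celf and Rbm genes (next 1303 CPM, ratio 0.721). In WT pool 2, 1 fibre was low in hnRNP genes at 855.6 CPM (next 1041 CPM, ratio 0.499). The limit for 10 fibres is 0.466.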

How the results depend on the processing

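No member was called in either direction under any of the 15 alternative fits, or in the main fit without the fold threshold. Calls over all genes differed between the fits, such as 3 higher and 3 lower of 12612 with thinned fibres, and 133 and 64 of 12863 by DESeq2. In the fit over 47 fibres without run, which treats fibres as replicates, 6 members had an adjusted p under 0.05 (Srsf4, Hnrnpc, Hnrnpk, Hnrnpul1, Hnrnph3 and Hnrnpd), each at a fold under 1.5. With both thresholds, that fit called 313 of 10156 genes higher and 172 lower. The share of all genes at that adjusted p alone was not counted, so the 6 members have no background. With pools left out in turn, the median log2 fold change ran from -0.17 to 0.032 for SR genes, from -0.17 to 0.0056 for hnRNP genes and from 0.00031 to 0.11 for the Tra2, Rbfox, Mbnl, Celf and Rbm genes. The SR median was -0.16 without fibre 740-12 and -0.17 without fibres 740-5 and 740-12. With run in a fit over fibres, which rests on 1 C2KO fibre in the shared run, the hnRNP median was 0.15 and that of the regulators 0.12. The cause was not tested. That fit also turned the sign of Hnrnpa2b1 (0.17), Hnrnpab (0.14), Hnrnpul1 (0.096), Rbm20 (0.15), Rbm24 (-0.28), Srsf3 (0.015), Srsf7 (0.24) and Tra2a (0.25). Values near 0 turned with pools left out, over the ranges -0.13 to 0.072 for Celf1, -0.094 to 0.10 for Mbnl2, -0.16 to 0.12 for Rbm20, -0.18 to 0.22 for Srsf2, -0.33 to 0.079 for Srsf3, -0.15 to 0.054 for Srsf7 and -0.040 to 0.23 for Tra2b. Mbnl2 was -0.0057 over fibres without run, -0.0039 without the filter, -0.029 without fibre 740-12 and -0.0089 with thinned fibres. Rbm20 was 0.013 without fibre 740-5 and 0.012 without both fibres (740-5 and 740-12), and Srsf2 was -0.014 without fibre 740-12 and -0.011 without both. No paired analysis was possible because fibre names pair no fibres across genotypes. Counting error per fibre was largest for Hnrnpa3 (24.8%) and Tra2a (24.2%) among the members tested.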
